A study of Mus musculus with 12 samples.

Results

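Notch receptors, Notch ligands and the Fringe enzyme Lfng were described in RNA-seq of mouse cochlear epithelium at embryonic day 16.5. The 10 genes were Notch1, Notch2, Notch3, Notch4, Jag1, Jag2, Dll1, Dll3, Dll4 and Lfng, taken by symbol from the deposited comparison table of 22869 gene symbols, and each had 1 transcript row there. The control group was 3 wild-type embryos and the knockout group 3 Esrp1-/- embryos, all on the C57BL/6 strain and all of the same age. Esrp1 encodes a splicing regulator of epithelial cells. The epithelium was dissected by hand and treated with collagenase to take off the mesenchyme around it, the cochleae of the left and right ears of an embryo went into 1 pool, and each embryo gave 2 libraries that share 1 column of reads. The embryos were individual animals, and the labels state neither their sex nor their litter. Same-numbered control and knockout embryos have label IDs with a common first part, whose meaning the labels do not give.

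Notch receptors are single-pass membrane proteins that are activated by Jagged and Delta-like ligands on neighbouring cells. Ligand binding exposes the receptor to ADAM proteases and then to gamma-secretase, and the freed intracellular domain joins RBPJ and Mastermind proteins at target genes such as Hes and Hey family members. In the cochlea, Jag1 acts with Notch1 in the prosensory domain, and later the nascent hair cells present Dll1 and Jag2 to their neighbours, which take the supporting cell fate (lateral inhibition). Lfng adds sugars to the receptors and shifts their preference between ligands, while Notch4 and Dll4 are best known from the endothelium of blood vessels and Notch3 from mural cells.

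Between 12547301 and 21568517 reads fell on genes in each embryo, and 14717 genes had enough reads to be tested. Esrp1 (chromosome 4, 11331933 to 11386783 in mm10) stood at 139 ± 50.9 CPM in the controls and at 33.5 ± 5.98 CPM in the knockouts (SD, n = 3 each), where CPM is the read count scaled to a common library size, after TMM scaling between embryos. Its log2 fold change was -2.05 (edgeR's quasi-likelihood test, adjusted p = 0.0354), in the direction that the labels give. The 6 epithelial markers listed, Epcam and Cdh1 among them, had reads in every embryo and summed to 874 to 1700 CPM, with overlapping groups. Markers of 8 non-epithelial cell types also had reads, and the 7 of the periotic mesenchyme summed to 846 to 1805 CPM. Within the duct, the summed markers of the roof and Reissner's membrane were higher in the knockouts (8440 to 10761 CPM against 3097 to 6740 CPM). Those of strial marginal cells (8.61 to 19.2 CPM against 97.3 to 180.1 CPM) and of the outer sulcus and lateral duct (193 to 459 CPM against 513 to 717 CPM) were lower. Oc90 made up most of the roof sum, at 8220 to 10497 CPM against 3038 to 6619 CPM. Gata3 made up most of the lateral duct sum, and Fst of that list overlapped between groups (log2 fold change -0.02). Esrrb made up most of the strial sum in the controls, at 76.7 to 143 CPM. Kcnq1 of the strial list overlapped between groups (log2 fold change -0.91). The part of these lists in the values of the Notch genes was not tested. Knockout embryo 1 stood apart from the other 5 in its long transcripts. Both embryos numbered 1 were high in immediate early genes. The 8 summed to 1102 CPM in control embryo 1, 463 CPM in knockout embryo 1 and 178 to 220 CPM in the other 4. Xist stood at 0.268 and 0.200 CPM in knockout embryos 2 and 3 and at 1098 to 1808 CPM in the other 4. Genes of the Y chromosome went the other way. Uty stood at 55.6 and 50.1 CPM in knockout embryos 2 and 3 and at 0.0539 to 0.229 CPM in the other 4. Ddx3y, Kdm5d and Eif2s3y were also high in knockout embryos 2 and 3 only. By these genes knockout embryos 2 and 3 were male and the other 4 female. Sex was therefore partly mixed with genotype, and its part was not tested beyond a fit with Xist as a covariate.

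All 10 Notch genes were expressed, and their levels differed widely. On the authors' FPKM scale, which divides reads by transcript length and so allows genes to be compared, Notch1 was highest in the controls at 21.9 ± 3.04 FPKM (SD, n = 3), followed by Jag1 at 18.5 ± 1.32 FPKM. Notch2 and Notch3 came next, at 10.5 ± 0.758 and 9.13 ± 1.38 FPKM, and their ranges overlapped. Lfng stood at 5.14 ± 0.286 FPKM and Jag2 at 3.51 ± 0.297 FPKM, each apart from its neighbours in this order. The remaining 4 genes lay below 1 FPKM on average. Notch4 (0.895 ± 0.373 FPKM), Dll4 (0.848 ± 0.339 FPKM) and Dll1 (0.804 ± 0.0613 FPKM) overlapped one another. Dll3 had the lowest mean, at 0.662 ± 0.123 FPKM, and did not overlap Dll1.

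The 6 genes above 1 FPKM in the controls kept the same order in the knockouts, where neighbours overlapped in other places. Notch1 (18.8 ± 4.69 FPKM) overlapped Jag1 (16.6 ± 3.87 FPKM), and Lfng (4.72 ± 1.50 FPKM) overlapped Jag2 (4.26 ± 0.424 FPKM). Notch1 overlapped Jag1 through knockout embryo 1 (13.4 and 12.1 FPKM), and was above Jag1 within each knockout embryo. Among the low genes Dll4 led at 0.873 ± 0.310 FPKM and Dll1 was last at 0.490 ± 0.0279 FPKM. Notch1 held 51.6 ± 2.20% of the summed FPKM of the 4 receptors in the controls and 48.3 ± 5.01% in the knockouts, with overlapping groups. Jag1 held 76.0 ± 0.946% of the summed FPKM of the 5 ligands in the controls and 72.3 ± 7.29% in the knockouts, also overlapping. Both shares were lowest in knockout embryo 1, at 42.6% for Notch1 and 64.0% for Jag1.

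**Figure D1:**
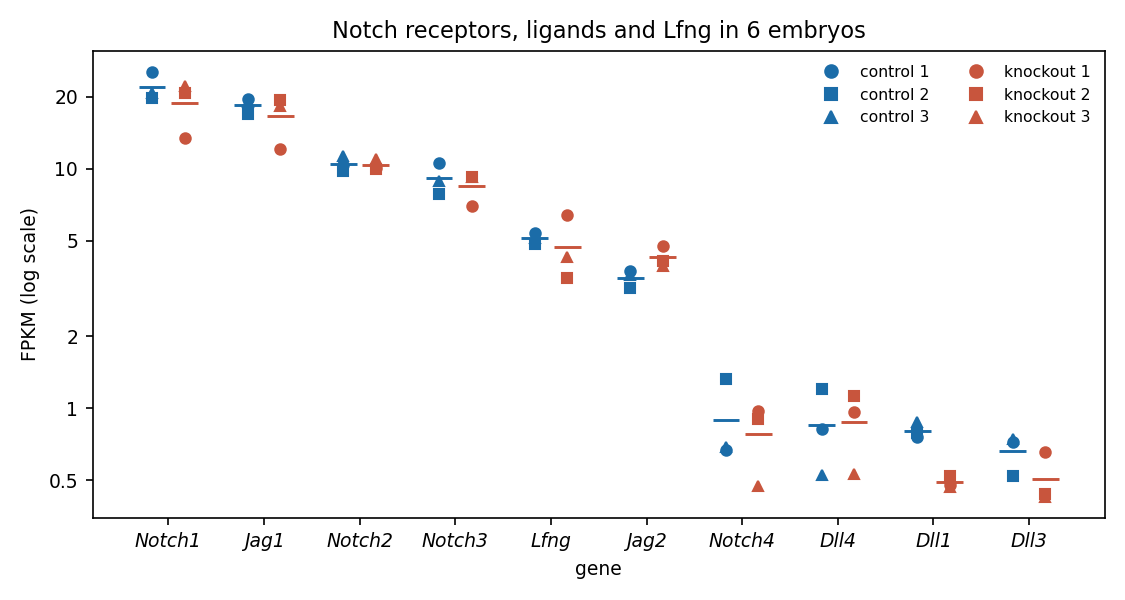
FPKM on a log scale for the 10 genes in the 6 embryos, ordered by the control mean, with controls in blue, knockouts in red, marker shape giving the embryo number and a short bar the group mean. Dll1 and Jag2 are the genes whose groups do not overlap, and knockout embryo 1 is the lowest red point for Notch1, Notch3 and Jag1.

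No member passed the test between knockout and control. edgeR's quasi-likelihood test with Benjamini-Hochberg adjustment over all 14717 genes called 22 genes at an adjusted p under 0.05 (0.149% of those tested) and 0 of the 10 members. DESeq2 called 1.07% of the genes for which it gave an adjusted p, and again 0 members. At an unadjusted p under 0.05, edgeR held 1 member, Dll1, where 4.77% of all genes tested did, and DESeq2 also held 1. The fitted log2 fold change was negative for 8 of the 10 members, against 49.7% of all genes tested, and the median over members was -0.18 where that over all genes was 0.00162. Without knockout embryo 1 it was negative for 6 members with a median of -0.03, and without both embryos numbered 1 for 4 members with a median of 0.03. In bulk tissue such as this, fewer cells of a type and less RNA per cell cannot be told apart. On counts simulated from these means and depths, 74 of 100 genes with a 2-fold change were recovered, and all 100 with a 4-fold change. Both fold sizes were in 1 run, with 13 calls among the unchanged genes. Changed genes were not drawn from those of lowest mean CPM. Apart from depth and the planted change, the simulated embryos did not differ. The recovery therefore need not hold for members of few reads, or for embryos that differ as these do.

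**Figure D2:**
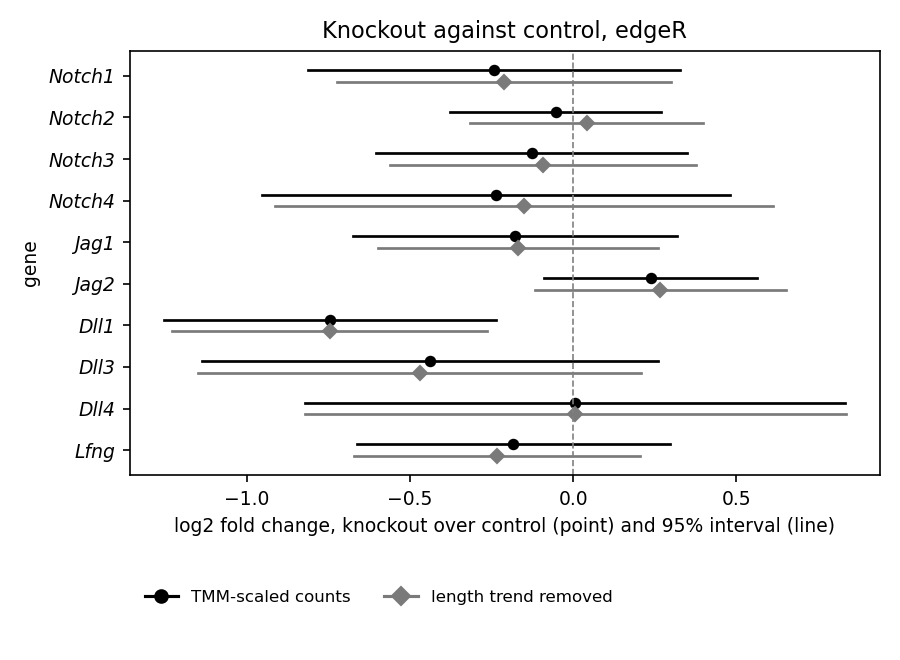
Log2 fold change of knockout over control (points) with the 95% interval (lines) from edgeR for each of the 10 genes, with TMM-scaled counts in black and with the length trend removed in grey. The interval of Dll1 is the only one that leaves out 0, and Jag2 has the highest of the black points at 0.24.

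Dll1, a Delta-like ligand of nascent hair cells, had the largest difference among the members. It stood at 6.83, 6.35 and 7.17 CPM in control embryos 1 to 3 and at 3.66, 4.24 and 4.20 CPM in knockout embryos 1 to 3. Every control was above every knockout, and the spread within each group was small beside the gap. The means were 6.78 ± 0.410 and 4.03 ± 0.326 CPM (SD, n = 3 each), so that the knockout level was 59.5% of the control level. The log2 fold change was -0.75 ± 0.22 (SE; 95% interval -1.25 to -0.24), with an adjusted p of 0.549 by edgeR. The exact two-sided permutation test gave p = 0.1, the smallest that 3 embryos against 3 allow.

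Dll1 was a gene of few reads, with 109, 140 and 133 in the controls and 48, 79 and 63 in the knockouts. Counting error alone gave a ratio of knockout to control reads, at equal depth, of 0.602 with an interval of 0.503 to 0.718. Groups that do not overlap on the CPM scale were found for 9.84% of all genes tested, and for 4.44% with the knockouts lower, so that 1 of 10 members is close to the share over all genes. Under the alternatives in processing, Dll1 stayed negative in every fit, from -0.89 to -0.68, and its lowest adjusted p was 0.155 by edgeR. Both the -0.89 and the 0.155 came from the fit with Xist as a covariate. In that fit 3554 of 14717 genes had an unadjusted p under 0.05, against 702 in the main fit. The authors' deposited table gives Dll1 a log2 fold change of -0.80 with p = 0.0176 and an FDR of 0.762.

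The Dll1 row lies on chromosome 17, 15367354 to 15376932 (mm10), with 11 exons. RefSeq lists 2 start sites for it, and the window from 250 bases before to 50 bases after the start of the deposited row is shown because Dll1 carries the largest difference. RBPJ, the DNA-binding partner of the Notch intracellular domain, recognises the core TGGGAA, and any match on either strand is in capitals here and below. This window holds none, while 25.6% of the 32851 windows of this length in the RefSeq table (GRCm38.p6) hold at least 1. In the following line it reads 5′ to 3′ on the minus strand, chr17:15376883-15377182.
Dll1: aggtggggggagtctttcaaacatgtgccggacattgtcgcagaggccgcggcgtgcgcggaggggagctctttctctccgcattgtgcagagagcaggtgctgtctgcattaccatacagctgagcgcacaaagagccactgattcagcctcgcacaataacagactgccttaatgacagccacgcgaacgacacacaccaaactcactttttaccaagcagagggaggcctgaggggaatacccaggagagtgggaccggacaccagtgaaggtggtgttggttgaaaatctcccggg

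Jag2, a Jagged ligand that hair cells also present, was the member with the highest fitted fold change. It stood at 40.5, 29.9 and 34.6 CPM in control embryos 1 to 3 and at 42.8, 39.8 and 41.2 CPM in knockout embryos 1 to 3. The 3 knockouts lay close together, and control embryo 1 fell between them, so that the groups overlapped. The means were 35.0 ± 5.28 and 41.3 ± 1.47 CPM, and the log2 fold change was 0.24 ± 0.14 (SE; 95% interval -0.09 to 0.56; edgeR adjusted p = 0.994). On the authors' FPKM scale Jag2 stood at 3.74, 3.17 and 3.61 in the controls and at 4.74, 4.12 and 3.93 in the knockouts. There the groups did not overlap, as for 9.48% of all genes tested, and Dll1 and Jag2 were the 2 members of which this held. Leaving out control embryo 2 lowered the Jag2 value to 0.13, and the other alternatives gave 0.20 to 0.35.

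The Jag2 row lies on chromosome 12, 112907803 to 112929812 (mm10), with 26 exons. The RefSeq window listed for Jag2 is shown as that of the other ligand whose FPKM groups are apart. It also has the highest GC content among the members' windows, at 86.0%. This window lies inside the coordinates given above and does not reach their end at 112929812. It therefore does not describe the bases upstream of that end. The members' median GC content was 63.7%, and that of all RefSeq windows was 52.7%. The Jag2 window holds no TGGGAA on either strand. In the following line it reads 5′ to 3′ on the minus strand, chr12:112929446-112929745.
Jag2: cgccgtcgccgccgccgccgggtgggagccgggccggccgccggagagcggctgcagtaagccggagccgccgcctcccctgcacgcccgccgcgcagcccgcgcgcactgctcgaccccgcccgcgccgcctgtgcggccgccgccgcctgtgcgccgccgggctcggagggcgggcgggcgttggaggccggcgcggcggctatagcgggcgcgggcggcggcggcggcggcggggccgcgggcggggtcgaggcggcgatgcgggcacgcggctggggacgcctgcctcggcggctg

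Read together, the 2 ligands gave a ratio within each embryo that does not depend on scaling. Jag2 reads were 5.93, 4.71 and 4.83 times Dll1 reads in control embryos 1 to 3, and 11.7, 9.39 and 9.81 times in knockout embryos 1 to 3. The groups were far apart, with means of 5.16 ± 0.668 and 10.3 ± 1.22 (SD, n = 3 each; exact two-sided permutation test, p = 0.1, the smallest possible). This pair was chosen after its values were seen, out of 45 pairs of members, of which 9 had groups that did not overlap. Of those 9 pairs, 7 included Jag2 and 3 included Dll1. Against Dll1, 79.2% of all other genes tested had read ratios whose groups did not overlap, and against Jag2 it was 19.6%, so a separated ratio to Dll1 was the usual case. As shares of the summed ligand FPKM, Jag2 held 14.4 ± 0.364% in the controls and 19.3 ± 4.97% in the knockouts, and Dll1 3.32 ± 0.315% and 2.19 ± 0.297%, neither with overlapping groups. The Jag2 share was 25.0% in knockout embryo 1 and 16.2% and 16.6% in the other knockouts.

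**Figure D3:**
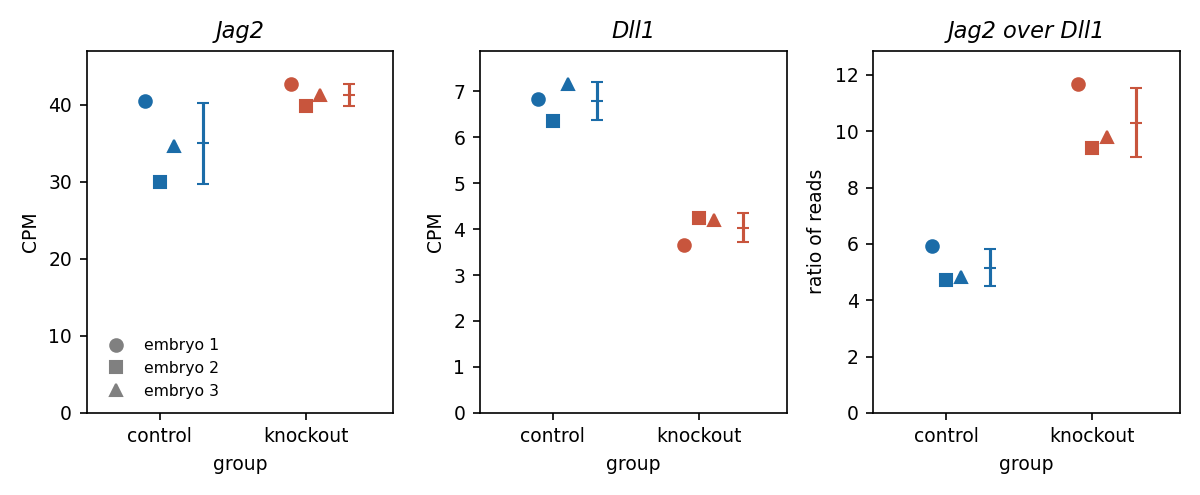
CPM of Jag2, CPM of Dll1 and the ratio of their reads in each embryo, with controls in blue, knockouts in red, marker shape giving the embryo number and the bar the mean and SD of 3 embryos. Jag2 overlaps between groups through control embryo 1, while Dll1 and the ratio do not overlap.

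Hair cell markers were measured beside Dll1 and Jag2. The 10 listed markers summed to 318, 345 and 360.4 CPM in the controls and 355, 272 and 266 CPM in the knockouts. The groups overlapped through knockout embryo 1. Atoh1, the transcription factor that starts hair cell differentiation, stood at 16.5, 12.7 and 19.5 CPM in the controls and 10.2, 9.18 and 14.3 CPM in the knockouts. Pou4f3, a later hair cell factor, stood at 17.5, 12.0 and 16.4 CPM against 11.9, 6.50 and 7.54 CPM, with every knockout below every control. By edgeR, 0 of the 10 hair cell markers passed the adjusted threshold, 1 had an unadjusted p under 0.05, and 5 fold changes were negative and 5 positive. The positive ones were Gfi1, Espn, Otof, Lhx3 and Pvalb. Otof, Gfi1 and Lhx3 were positive through knockout embryo 1, at 29.8, 11.3 and 5.72 CPM. In knockout embryos 2 and 3 each of them lay below every control. Otof stood there at 1.99 and 1.13 CPM against 4.63 to 6.90 CPM in the controls. Gfi1 stood at 1.93 and 2.60 CPM against 3.57 to 4.58 CPM, and Lhx3 at 0.966 and 0.400 CPM against 1.27 to 1.57 CPM. For Espn and Pvalb, knockout embryos 2 and 3 lay within the control range. Groups did not overlap for 2 of the 10, Pou4f3 and Myo6, where 9.84% of all genes tested had such groups. Myo6, at 167 to 221 CPM, was the largest part of each sum. The part of these markers in the Dll1 and Jag2 values was not tested.

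Dll3, the divergent Delta-like protein that does not activate receptors from a neighbouring cell, was also a gene of few reads. It stood at 4.14, 2.63 and 3.77 CPM in the controls and at 3.05, 2.25 and 2.47 CPM in the knockouts. Control embryo 2 fell among the knockouts. The log2 fold change was -0.44 ± 0.31 (SE; 95% interval -1.14 to 0.26; edgeR adjusted p = 0.994), and 194 control reads stood against 119 knockout reads in all. The Dll3 row lies on chromosome 7, 28293555 to 28301785 (mm10), with 9 exons.

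Dll4, the Delta-like ligand best known from vessel sprouting, had almost the same mean in both groups, 6.52 ± 2.45 and 6.54 ± 2.23 CPM. It stood at 6.83, 8.80 and 3.93 CPM in the controls and at 6.78, 8.64 and 4.20 CPM in the knockouts, each group spreading more than 2-fold. The log2 fold change was 0.01 ± 0.36 (SE; 95% interval -0.82 to 0.83), an interval that leaves room for changes in either direction. Its sign changed to -0.26 without control embryo 3, to -0.03 without knockout embryo 1 and to -0.25 without knockout embryo 2. The Dll4 row lies on chromosome 2, 119325784 to 119335666 (mm10), with 11 exons.

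Jag1, the Jagged ligand of the prosensory domain and of supporting cells, was the main ligand by level. It stood at 285, 217 and 247 CPM in the controls and at 149.7, 253 and 259 CPM in the knockouts. Knockout embryo 1 was far below the other 5 embryos, and the other knockouts fell inside the control range. The means were 249.7 ± 34.1 and 221 ± 61.5 CPM, with a log2 fold change of -0.18 ± 0.22 (SE; 95% interval -0.67 to 0.32; edgeR adjusted p = 0.994). Without knockout embryo 1 the log2 fold change was 0.03. The Jag1 row lies on chromosome 2, 137081451 to 137116520 (mm10), with 26 exons.

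Among the receptors, Notch1, the main receptor of the prosensory epithelium, showed the same pattern. It stood at 640, 435 and 466 CPM in the controls and at 287, 469 and 545 CPM in the knockouts, so that the highest value was in control embryo 1 and the lowest in knockout embryo 1. The log2 fold change was -0.24 ± 0.25 (SE; 95% interval -0.81 to 0.33; edgeR adjusted p = 0.994). It moved to -0.06 without control embryo 1 and to -0.03 without knockout embryo 1. The Notch1 row lies on chromosome 2, 26457902 to 26503822 (mm10), with 34 exons.

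Notch2 and Notch3 had groups that overlapped, with fold changes nearer to 0. Notch2, a receptor of broad expression, stood at 265, 219 and 260 CPM in the controls and 217, 231 and 268 CPM in the knockouts, the narrowest spread of any member. Its log2 fold change was -0.05 ± 0.14 (SE; 95% interval -0.38 to 0.27), which leaves out a change of 2-fold in either direction. Notch3, a receptor best known from pericytes and smooth muscle, stood at 224, 145 and 167 CPM in the controls and 125, 175 and 190 CPM in the knockouts. Its log2 fold change was -0.13 ± 0.21 (SE; 95% interval -0.60 to 0.35), and the value was 0.07 without control embryo 1 and 0.02 without knockout embryo 1. Both rows had an adjusted p of 0.994 by edgeR, and without knockout embryo 1 the Notch2 value was 0.00. Notch2 lies on chromosome 3, 98013538 to 98150367, with 34 exons, and Notch3 on chromosome 17, 32120820 to 32166896, with 33 exons (mm10).

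The 9 markers of pericytes and smooth muscle, where Notch3 is best known, summed to 113, 234 and 189 CPM in the controls and to 163, 195 and 146 CPM in the knockouts. Control embryo 1 had the lowest sum and the highest Notch3 value. The 10 prosensory and supporting cell markers summed to 932, 774 and 841 CPM in the controls and to 568, 834 and 909 CPM in the knockouts. Knockout embryo 1 was lowest there as well, as it was for Notch1, Notch3 and Jag1. What these markers contribute to the receptor values was not tested.

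Notch4, a receptor of endothelial cells, stood at 10.8, 18.6 and 9.86 CPM in the controls and 13.1, 13.0 and 7.34 CPM in the knockouts. The groups overlapped, and the log2 fold change was -0.24 ± 0.31 (SE; 95% interval -0.95 to 0.48; edgeR adjusted p = 0.994). Leaving out control embryo 2, the highest, turned it to 0.11. The Notch4 row lies on chromosome 17, 34564286 to 34588543 (mm10), with 30 exons. The 10 endothelial markers, Pecam1 and Cdh5 among them, all had reads in every embryo and summed to 272, 529 and 362 CPM in the controls and 380.2, 424 and 247 CPM in the knockouts. Notch4 and Dll4 were both highest among the controls in control embryo 2, where this sum was highest, and Notch4 was lowest in knockout embryo 3, where it was lowest. Dll4 was lowest in control embryo 3, whose sum was above that of control embryo 1, and Notch4 was also lower in control embryo 3 than in control embryo 1. The part of vessel content in the Notch4 and Dll4 values was not tested.

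**Figure D4:**
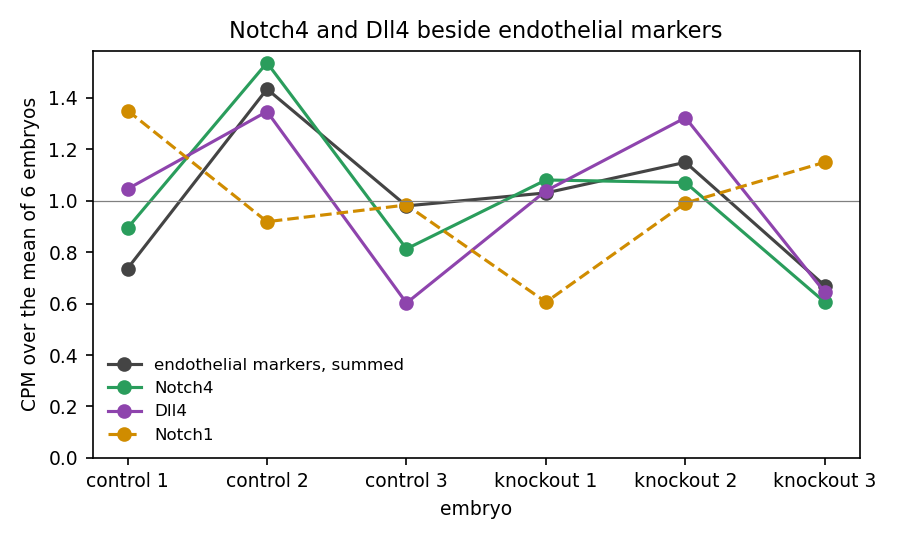
CPM in each embryo divided by the mean of the 6 embryos for the summed endothelial markers (grey), Notch4 (green), Dll4 (purple) and Notch1 (orange, dashed). Notch4 and the summed markers peak together in control embryo 2 and are lowest together in knockout embryo 3, Dll4 is lowest in control embryo 3, and Notch1 is highest in control embryo 1 and lowest in knockout embryo 1.

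Lfng, the Fringe enzyme, stood at 30.5, 23.4 and 25.7 CPM in the controls and 29.9, 17.4 and 22.8 CPM in the knockouts. The groups overlapped, and knockout embryo 2 was lowest. The log2 fold change was -0.18 ± 0.21 (SE; 95% interval -0.66 to 0.30; edgeR adjusted p = 0.994). It was -0.01 without knockout embryo 2 and -0.41 without knockout embryo 1. The Lfng row lies on chromosome 5, 140607341 to 140615545 (mm10), with 8 exons.

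Lfng was the 1 member whose start window holds the TGGGAA core, with 2 matches that begin 135 and 108 bases before the start. The 10 members matched 11 RefSeq windows, so 1 of 11 held the core, where 25.6% of all 32851 windows did. Of the 6 Notch targets, Hes5, Hey2 and Nrarp had a RefSeq window, and Hes5 and Hey2 hold 2 matches each. Lfng and Hes5 are shown as the member and the target with the core in view. A match is a run of letters and not a measured binding site. The lines below read 5′ to 3′ on the plus strand, at chr5:140607091-140607390 and chr4:154960673-154960972, with TGGGAA or its reverse complement in capitals.
Lfng: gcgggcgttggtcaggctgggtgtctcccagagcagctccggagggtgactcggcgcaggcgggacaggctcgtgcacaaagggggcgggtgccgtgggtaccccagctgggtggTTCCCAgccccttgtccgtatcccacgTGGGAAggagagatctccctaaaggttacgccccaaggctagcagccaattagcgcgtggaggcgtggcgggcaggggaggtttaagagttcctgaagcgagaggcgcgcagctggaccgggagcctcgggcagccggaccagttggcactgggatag
Hes5: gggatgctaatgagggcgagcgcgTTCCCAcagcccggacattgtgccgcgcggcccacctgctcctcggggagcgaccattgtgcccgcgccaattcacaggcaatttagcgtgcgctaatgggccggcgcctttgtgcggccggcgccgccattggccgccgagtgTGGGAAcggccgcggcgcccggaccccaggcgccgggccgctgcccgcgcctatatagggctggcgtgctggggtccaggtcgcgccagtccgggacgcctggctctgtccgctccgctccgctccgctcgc

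Low values in knockout embryo 1 ran through several members. It was the lowest of the 6 embryos for 5 of the 10 members (Notch1, Notch2, Notch3, Jag1 and Dll1), where it was lowest for 28.8% of all genes tested. In this embryo the difference in log2 CPM from the other 5 embryos' mean went down with transcript length over all genes. The median was 0.32 for 3938 genes with transcripts of up to 2 kb and -0.40 for 1729 genes over 6 kb, while the other embryos' medians over 6 kb lay between -0.03 and 0.16. It was the lowest embryo for 7.82% of genes up to 2 kb, 24.3% from 2 to 4 kb, 45.0% from 4 to 6 kb and 65.3% over 6 kb.

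The receptors have long transcripts, from 6591 bases for Notch4 to 10500 for Notch2, and the Delta-like ligands and Lfng short ones, from 2305 to 3747 bases. Notch1 in knockout embryo 1 was lower by more than the trend, at -0.82 against the median of -0.40, and Notch3 was near it at -0.51. Notch2, at -0.19, and Notch4, at 0.20, lay above it. Jag1, of 5612 bases, was at -0.75 where the median of its length class was -0.19, and Jag2, of 5106 bases, was at 0.21. Dll1, of 3581 bases, was at -0.60 where its class had a median of 0.04, and it was also low in knockout embryos 2 and 3, at -0.35 and -0.37.

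When each embryo's trend with transcript length was taken out, a step chosen after the trend was seen, 0 members passed the threshold and Dll1 kept a log2 fold change of -0.75 (edgeR adjusted p = 0.465). Jag2 was at 0.27, Notch1 at -0.21 and Jag1 at -0.17. Notch2 changed sign, to 0.04. Without both embryos numbered 1, Dll1 was at -0.68 and Jag2 at 0.32, and Notch1, Notch3 and Jag1 were positive, at 0.16, 0.22 and 0.13.

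**Figure D5:**
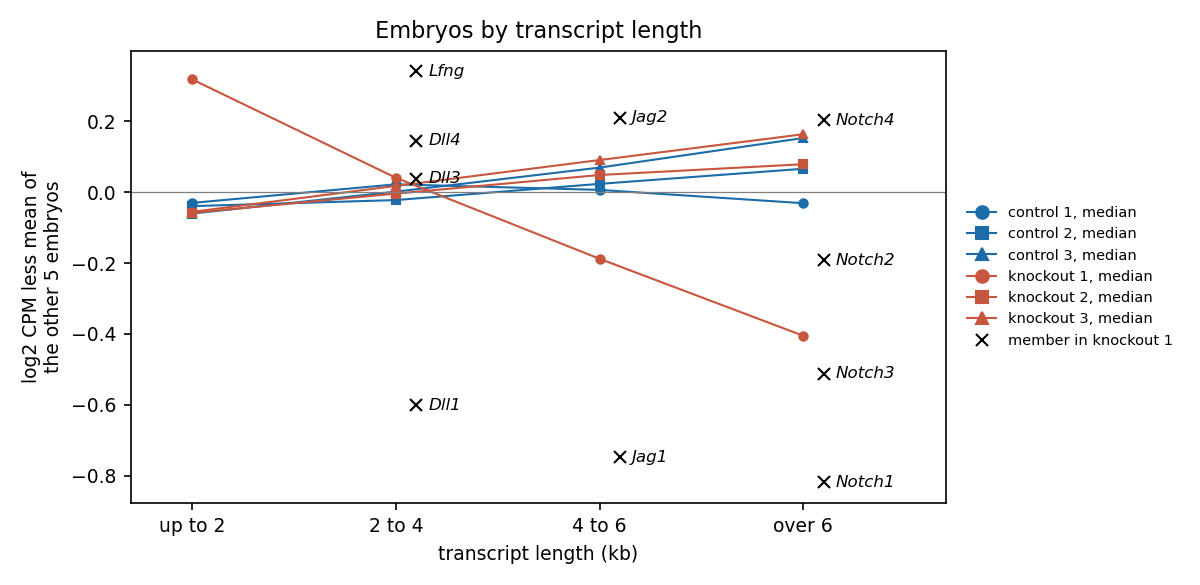
Median difference in log2 CPM from the other 5 embryos' mean, by transcript length class in kb, for each of the 6 embryos (lines), with the 10 genes' values in knockout embryo 1 as crosses (2 lie close to each other at 2 to 4 kb). The line of knockout embryo 1 falls from 0.32 to -0.40, and the crosses of Dll1, Jag1, Notch1 and Notch3 lie below it.

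Outside the ligands and receptors, 43 other genes of the pathway were listed and all were tested. By edgeR, 0 rose and 0 fell at an adjusted p under 0.05, where 0.149% of all genes tested were called. Hes5 and Dlk1 had an unadjusted p under 0.05. That held for 4.77% of all genes tested, so 2 of 43 is close to the share over all genes. The median log2 fold change was -0.01, with 23 negative and 20 positive. Groups did not overlap for 5 of the 43 (9.84% of all genes tested), with Hes5, Rbpj and Snw1 lower in the knockouts and Dlk1 and Numbl higher. DESeq2 called 1, Dlk1, with an adjusted p of 0.0451, where it called 1.07% of all genes for which it gave an adjusted p.

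Hes5, a target gene that marks active Notch signalling in supporting cells, had the lowest fold change of the list. It stood at 3.64, 4.35 and 6.20 CPM in the controls and 2.13, 2.31 and 0.934 CPM in the knockouts, on 269 and 85 reads. Every knockout was below every control, as with Dll1, and the log2 fold change was -1.39 ± 0.40 (SE; edgeR adjusted p = 0.512). DESeq2 gave Hes5 an adjusted p of 0.0919, and the authors' deposited table gives it a log2 fold change of -1.43 with an FDR of 0.0813. The other 5 targets had fold changes of either sign, from -0.29 to 0.21. Hes1 was at -0.02, Hey1 at -0.29, Hey2 at 0.21, Heyl at 0.05 and Nrarp, a negative regulator of the Notch complex, at -0.12, each with an adjusted p of 0.994 or, for Hes1, 0.995 by edgeR. Single embryos moved these values. Hes1 ranged from -0.24 without control embryo 1 to 0.30 without control embryo 2, and Hey1 was at -0.10 without control embryo 1. Hey2 was at 0.05 without knockout embryo 3 and at 0.37 without knockout embryo 1. Heyl ranged from -0.10 without control embryo 1 to 0.25 without control embryo 2, and Nrarp from -0.25 without control embryo 2 to 0.02 without knockout embryo 2. Without both embryos numbered 1, Hey1 was at 0.04 and Hey2 at 0.48.

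None of the genes that act on the receptors and ligands passed the test. Pofut1, the fucosyltransferase that Fringe enzymes build on, stood at 85.0 ± 5.01 CPM in the controls and 89.5 ± 6.12 CPM in the knockouts, the smallest p of 4 glycosylation genes. Mib1, the ubiquitin ligase that sends ligands into endocytosis, had the smallest p of 4 such genes, with a log2 fold change of -0.24 that was 0.02 without knockout embryo 1. Adam17, a protease of the Notch and other receptors, had it among the 10 genes of receptor cleavage, at -0.23 and at -0.10 without knockout embryo 1, and 6 of those 10 were positive. Numbl, a relative of the Notch inhibitor Numb, stood at 50.0 ± 2.11 CPM in the controls and 59.2 ± 2.59 CPM in the knockouts (log2 fold change 0.25), with groups that did not overlap.

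Rbpj, the DNA-binding partner of all 4 receptors, stood at 132, 126 and 133 CPM in the controls and 87.7, 122 and 125 CPM in the knockouts (log2 fold change -0.22, or -0.08 without knockout embryo 1; edgeR adjusted p = 0.994). Knockout embryo 1 was again lowest, as it was for 6 of the 7 genes of the nuclear complex. It was lowest for 28.8% of all genes tested, and for 45.0% of those from 4 to 6 kb and 65.3% of those over 6 kb. The part of transcript length in this count was not tested. Dlk1, a Delta-like protein without the usual receptor-binding domain, stood at 16.3, 11.9 and 15.7 CPM in the controls and 72.3, 27.1 and 18.5 CPM in the knockouts. Knockout embryo 1 held most of that difference. The log2 fold change was 1.42 ± 0.45 (SE; edgeR adjusted p = 0.624) and 0.64 without knockout embryo 1. In the authors' deposited table the 5 rows of Dlk1 have log2 fold changes of 1.27 to 1.29 and an FDR of 0.0147 to 0.0172, the only rows of these 53 genes with an FDR under 0.05.

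Because Esrp1 regulates splicing, the transcript rows were also compared. The 10 members have 1 row each, so the files hold no isoform split for them. Among the 43 other genes, 10 had 15 further rows with at least 60 reads over the 6 embryos, and for 0 of the 15 did the reads as a share of the gene's main row separate the groups. For Numb, an inhibitor of Notch with known splice forms, the further row held 98.8 ± 0.631% of the reads of the main row in the controls and 99.1 ± 0.0128% in the knockouts. Rows of one gene share most of their reads, so a small difference in one exon could be hidden in these shares.

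The 3 members whose log2 CPM spanned more than 1 over the 6 embryos were set beside the other genes, by the root mean square difference of log2 CPM centred on each gene's own mean. Out of 14094 genes, Notch1 was nearest to Sipa1l1 (0.0602), Unc13b (0.0607) and Ism1 (0.0670), where the median gene was at 0.407. Notch4 was nearest to Plxnd1 (0.0691), Col15a1 (0.0727) and Mmrn2 (0.0771), with a median of 0.472. Dll4 was nearest to Ecm1 (0.134), Phospho1 (0.180) and Hlx (0.187), with a median of 0.509, so its nearest genes were farther away than those of Notch1 or Notch4. The 6 embryos share depth and composition effects across genes, and these distances are a description.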

How the data were processed

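RNA-seq of 12 libraries from 6 embryos was analysed. Reads per RefSeq transcript were deposited as raw counts in 1 column per embryo, per the file headers, and the 2 libraries of an embryo stand together there. The authors also deposited FPKM, scaled by transcript length and library size, and log2 fold changes with p-values and FDR per row, per the file headers. The submitters' processing notes name edgeR and mm10, while for the aligner and the read counter the answer is: not given in the sources used here. The table's other 14 columns of values were left unused.

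Each gene was taken as its row with the most reads, of 28644 rows. Counts were tested with edgeR 4.0.16 (quasi-likelihood test, TMM scaling, filterByExpr minimum count 10), knockout against control, 3 embryos each, with Benjamini-Hochberg adjustment over 14717 genes and a threshold of 0.05. Standard errors were the size of the log2 fold change divided by the root of its F statistic. DESeq2 1.42.0, other scalings, no filter, an embryo-number block, Xist as a covariate, the first listed row and fits leaving out embryos were alternatives, and removal of the length trend (loess, span 0.5, 98.2% of genes with a length) was added after the data were seen. The test was tested on simulated data. CPM are TMM-scaled, groups do not overlap where every embryo of one lies above every embryo of the other, and counting intervals (95%) cover counting error only.

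The members and lists were chosen with earlier results of these data known. The text names all members, the pathway gene of each role with the smallest p, the Notch targets, Esrp1 and Numb, and the 3 genes nearest to each member that spans more than 1 on the log2 scale (mean CPM of at least 1). Other genes named were chosen after their values were seen. Start windows and their sequences are from RefSeq (GRCm38.p6), and no window was matched for Hes1, Hey1 and Heyl.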

Additional observations from a re-analysis of the deposited data

How the results depend on the processing

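In all, 0 of the 10 members passed the adjusted threshold in each alternative. Of 150 member values under the alternatives, 133 kept their sign and side of the threshold and 17 changed sign. Genes called numbered 22 at first, 167 with DESeq2, 6 with the embryo number as a replicate block, 6 with Xist as a covariate, 159 without both embryos numbered 1, and 0 to 30 when 1 embryo was left out. Pathway genes called numbered 0 and, with DESeq2, 1. Members whose groups did not overlap numbered 2 on FPKM and 1 on CPM. Without both embryos numbered 1, signs turned for Notch1 (0.16), Notch2 (0.0523), Notch3 (0.22) and Jag1 (0.13). Dll4 turned with DESeq2 (-0.0104), with its size factors in edgeR (-0.0102) and with no filter (-0.00993), Notch2 with the length trend removed (0.0418) and Lfng with Xist as a covariate (0.21). Leaving out 1 embryo gave -0.15 to 0.00148 for Notch2, -0.26 to 0.0667 for Notch3, -0.41 to 0.11 for Notch4, -0.31 to 0.0274 for Jag1 and -0.26 to 0.29 for Dll4. With Xist as a covariate Notch1 was at -0.88 and Jag1 at -0.77 (edgeR adjusted p = 0.0868), and the cause was not tested. Knockout embryo 1 was the only knockout with high Xist, as in the controls. That fit therefore leans on this embryo and cannot separate sex from genotype. Same-numbered embryos had correlations of 0.0768, 0.177 and 0.0288 in their deviations from the group means, and differently numbered ones -0.224 to 0.158. Control embryos 1 and 3 correlated best with another number. With 3 embryos per group these correlations cannot decide whether the numbers mark pairs. The label IDs of same-numbered embryos share their first part. The main test took the embryos as unpaired, and the embryo-number block was an alternative.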
